A study of Mus musculus with 4 samples.

Results

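Cells that carried the T-cell receptor delta constant gene Trdc together with genes of the gamma-delta lineage were examined in single-cell RNA sequencing of mouse thymus. The cells were selected on measured transcripts. A cell entered the gate with at least 1 unique molecular identifier (UMI, a count of 1 captured RNA molecule) of Trdc and at least 1 UMI each of 2 or more of Sox13, Maf, Rora, Trdv4 and Cd163l1. They are called gated cells here, and those 5 genes the lineage genes. Of 17544 cells kept in 4 libraries, 693 were gated: 17 in the wild-type (WT) thymus, 530 in the preleukemic thymus, and 5 and 141 in the leukemias T-ALL#1 and T-ALL#2.

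All libraries came from FVB/N mice, 1 library per thymus. The WT and the preleukemic animal were aged 6 weeks, and the animals with overt leukemia of T-cell type (T-ALL) 3 months. The preleukemic and both leukemic animals carried Tal1 and Lmo2 transgenes, which the proximal Lck promoter drives in thymocytes, so that transgene expression depends on the activity of that promoter in a cell. WT and preleukemic groups held 1 library each and the leukemic group held 2, so differences between conditions are differences between libraries and none was tested across animals.

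Gamma-delta T cells are a thymus-derived lineage whose antigen receptor joins a gamma and a delta chain, whereas most thymocytes make a beta chain with Trbc1 or Trbc2 and then an alpha chain with Trac. The delta locus lies inside the alpha locus and is deleted from a chromosome when alpha rearranges, and beta and gamma transcripts are made in early thymocytes of both fates. Sox13, Maf and Rora encode transcription factors linked to gamma-delta cells that go on to make interleukin-17. Cd163l1 encodes a scavenger receptor of these cells, and Trdv4 is a delta variable segment. In the usual series, thymocytes without CD4 and CD8 (double-negative, DN) become double-positive (DP) for both and then lose 1 of them.

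Kept cells had a median of 3800.5 UMIs in WT, 4888 in preleukemic, 8742 in T-ALL#1 and 17581 in T-ALL#2, and pairs of libraries shared 0 to 9 barcodes of kept cells. Tal1, the transgene, had 0 UMIs in WT and 4830 to 16732 in the other libraries. The labels call the WT, preleukemic and T-ALL#2 animals male and T-ALL#1 female. Xist stood at 1380 to 1932 counts per 1000000 UMIs (CPM) in WT, preleukemic and T-ALL#1, with 1 to 5 UMIs in all of 4 Y-linked genes, and at 0.0828 CPM in T-ALL#2, with 4413. The WT and preleukemic libraries therefore went against their sex label, and their gated cells held 300 and 8802 UMIs of Xist and 0 of the Y-linked genes.

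The genes read to judge receptor identity are close copies in some cases, which limits what their UMIs can tell. Coding sequences of Tcrg-C1 and Tcrg-C2 were 94.6% identical and those of Trbc1 and Trbc2 95.6%, whereas Tcrg-C4 was 69.9% identical to Tcrg-C1. The last 60 coding bases of 3 gamma constant genes are shown because the libraries read the 3′ end of transcripts. They are GENCODE M21 transcripts on GRCm38, at chr13:19216556-19216615 (plus strand) for Tcrg-C1, chr13:19305063-19305122 (minus strand) for Tcrg-C2 and chr13:19352281-19352340 (plus strand) for Tcrg-C4. Capitals mark bases that differ from Tcrg-C1 at the same distance from the last coding base, with no gaps allowed.
Tcrg-C1: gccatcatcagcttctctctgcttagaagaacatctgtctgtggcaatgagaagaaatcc
Tcrg-C2: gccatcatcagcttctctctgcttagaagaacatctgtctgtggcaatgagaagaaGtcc
Tcrg-C4: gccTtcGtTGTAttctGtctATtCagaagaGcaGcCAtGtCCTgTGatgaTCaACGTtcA
Tcrg-C2 differed from Tcrg-C1 at 1 of these bases and Tcrg-C4 at 27, so the split of UMIs between Tcrg-C1 and Tcrg-C2, like that between Trbc1 and Trbc2, is uncertain. The gamma constant genes were therefore counted together as well. Trdc (chromosome 14, 54142851 to 54148868, plus strand) overlaps the delta variable segment Trdv5 on the other strand (54148662 to 54149294), and Trac lies downstream at 54220521 to 54224206.

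Gated cells made up 0.403% of the WT library (exact 95% interval 0.235 to 0.644), 9.51% of the preleukemic library (8.75 to 10.3), 0.0866% of T-ALL#1 (0.0281 to 0.202) and 7.14% of T-ALL#2 (6.04 to 8.37). All intervals on shares and levels cover counting error only. The leukemic mean was 3.61% ± 4.99 (SD, n = 2), because the 2 leukemias stood far apart. With every cell thinned to 2000 UMIs, the gate was met by 6 of 3229 WT cells (0.186%) and 206 of 5226 preleukemic cells (3.94%), by 0 of 5679 cells of T-ALL#1 (upper bound 0.0649%) and by 4 of 1975 of T-ALL#2 (0.203%). At equal depth the preleukemic library thus stayed above the WT library, while the share in T-ALL#2 lay within the WT interval of 0.0682 to 0.404%.

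**Figure D1:**
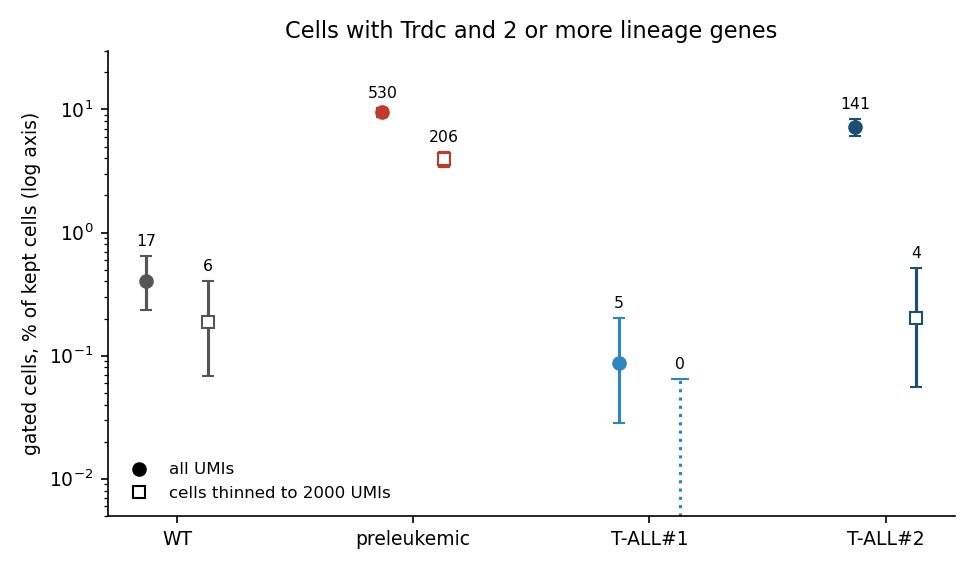
Gated cells as a percentage of kept cells in each library, on a log axis, with all UMIs (filled circles) and with each cell thinned to 2000 UMIs (open squares). Bars are exact 95% binomial intervals, numbers are gated cells, and the dotted bar marks a count of 0. The T-ALL#2 share dropped from 7.14% to 0.203% on thinning and the preleukemic share from 9.51% to 3.94%.

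Some genes that define the gate were common among preleukemic cells at large. Trdc was detected in 14.8% of WT and 81.8% of preleukemic cells, and the leukemias had it in 0.416% (T-ALL#1) and 69.1% (T-ALL#2). Rora, which encodes a nuclear receptor, was in 8.01%, 47.0%, 3.43% and 9.16% of cells in the same order, and Sox13 in 1.14%, 14.7%, 4.83% and 5.72%. Cd163l1 was in 0.403%, 2.83%, 6.25% and 44.3%, and Maf in 1.66%, 2.21%, 0.156% and 0.911%. Trdc and Rora were thus common among preleukemic cells, whereas Maf was rare in each library.

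The lineage genes were found more often in cells with Trdc than in cells of like depth without it, but not only there. Among 1015 depth-paired preleukemic cells, 10.1% with Trdc (8.36 to 12.2) and 6.4% without it (4.98 to 8.09) had 2 or more lineage genes. The numbers were 14 and 6 of 502 cells in WT, 5 and 0 of 24 in T-ALL#1, and T-ALL#2 had 55 and 30 of 532. The intervals lay apart in the preleukemic library and overlapped in WT and both leukemias. T-ALL#1 also held 131 cells with 2 or more lineage genes and no Trdc UMI.

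A rough background came from cells picked by markers of other lineages. Cells with B or myeloid genes and no Cd3e numbered 16 in WT (median 5126 UMIs) and 28 in the preleukemic library (4117 UMIs). The gate took 1 of these 16 WT cells and 2 of the 28 preleukemic ones (7.14%, 0.877 to 23.5), and Trdc had a UMI in 4 and 8 of them. The gated WT cell had 7 UMIs of Fcer1g and 2 of Cst3, both on the myeloid list, but also NK genes. The set was therefore not made of B and myeloid cells alone. The preleukemic gated share of 9.51% lay inside that wide interval, so at this number of cells it was not told apart from the share in this mixed set. In both leukemias the gate took 0 of these cells, of 14 in T-ALL#1 and 9 in T-ALL#2.

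T-ALL#2 was deposited with its empty droplets, which show the RNA free in the suspension. Over 65828 droplets of 100 to 500 UMIs, Cd163l1 stood at 100 CPM (95.6 to 105) against 63.3 CPM in kept cells, a ratio of 0.633. Trdc stood at 120 CPM in the droplets and 131 CPM in cells, and Tcrg-C2 at 86.9 and 100 CPM. Rora and Sox13 were 1.67 and 1.69 times higher in cells than in droplets, and Trac 2.43 times. Cd163l1, the gene that brought most T-ALL#2 cells into the gate, was thus lower in cells than in the free RNA. Empty droplets of the other libraries were not analysed here, and the part of free RNA in the gate was not tested.

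Different lineage genes brought cells into the gate in each library. In WT, 12 of the 17 gated cells had Maf, 12 had Sox13, 15 had Rora, 6 had Cd163l1 and 0 had Trdv4. Of 530 preleukemic gated cells, 506 had Rora and 454 had Sox13, whereas 87 had Maf, 84 Cd163l1 and 9 Trdv4. In T-ALL#2, 133 of 141 had Cd163l1, 85 Rora, 58 Sox13, 10 Maf and 1 Trdv4. All 5 T-ALL#1 cells had Rora, 3 had Maf, and Sox13, Trdv4 and Cd163l1 were each in 1.

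As combinations, Sox13 with Rora and no other lineage gene accounted for 375 preleukemic cells (70.8%) and 2 WT cells. Maf with at least 1 other lineage gene accounted for 12 WT cells (70.6%), 87 preleukemic cells (16.4%), 3 T-ALL#1 cells and 10 T-ALL#2 cells (7.09%). Cd163l1 with Sox13 or Rora and no Maf accounted for 124 T-ALL#2 cells (87.9%), 67 preleukemic cells, 3 WT cells and 1 T-ALL#1 cell. At least 3 lineage genes were found in 9 of 17 WT, 66 of 530 preleukemic, 1 of 5 T-ALL#1 and 5 of 141 T-ALL#2 gated cells. Just outside the gate lay the cells with Trdc and exactly 1 lineage gene, which numbered 57, 2117, 0 and 671.

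**Figure D2:**
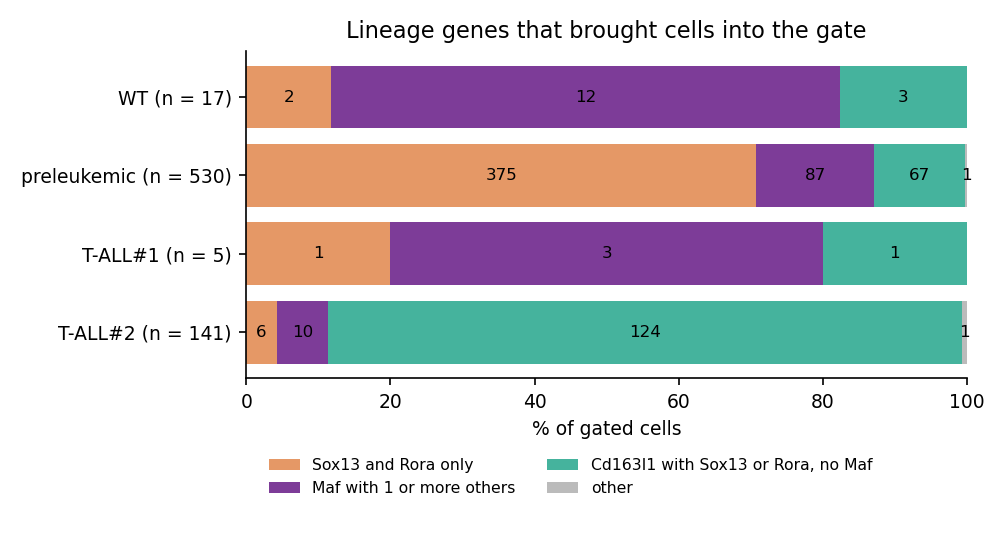
Gated cells of each library split by the lineage genes they hold, as a percentage of gated cells, with numbers of cells in the bars. Sox13 with Rora alone fills most of the preleukemic bar (375 of 530), Maf most of the WT bar (12 of 17) and Cd163l1 without Maf most of the T-ALL#2 bar (124 of 141).

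UMIs of Trdc per gated cell differed between the libraries, which also differed in depth. It ran from 1 to 58 UMIs per WT gated cell (median 21), from 1 to 157 in the preleukemic library (median 9), from 1 to 15 in T-ALL#1 (median 4) and from 1 to 13 in T-ALL#2 (median 3). Cells with Trdc and no lineage gene, called Trdc-only cells, had medians of 3, 5, 4 and 3 UMIs. A single Trdc UMI admitted 1 WT, 51 preleukemic (9.62%), 2 T-ALL#1 and 27 T-ALL#2 (19.1%) gated cells.

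To ask what else marked the gated cells, each was paired with the Trdc-only cell of the same library nearest in depth. All 17 WT and 530 preleukemic gated cells found a partner, 4 of 5 in T-ALL#1 and 135 of 141 in T-ALL#2. Median depths were 9140 UMIs in gated and 9205 in partner cells in WT, 5685.5 and 5688.5 in the preleukemic library, and 19329 and 19332 in T-ALL#2. Because the gate chose the cells on their UMIs, what follows describes them and is no test.

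Gamma constant transcripts, which a gamma-delta T cell needs, were found in 12 of 17 WT gated cells (70.6%, 44.0 to 89.7) and in 4 of 17 partners (23.5%), whose intervals overlapped. Among preleukemic cells they were in 455 of 530 gated cells (85.8%, 82.6 to 88.7) and 335 of 530 partners (63.2%, 58.9 to 67.3). In T-ALL#2 they were in 84.4% of gated cells (77.3 to 90.0) and 75.6% of partners (67.4 to 82.5), again with overlap. All 5 T-ALL#1 gated cells had them. Preleukemic cells with exactly 1 lineage gene lay between, at 76.1%.

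Trac, the alpha constant gene of the other lineage, was present in many gated cells too. It was detected in 9 of 17 WT gated cells (52.9%, 27.8 to 77.0) against 12 of 17 partners. It was in 299 of 530 preleukemic gated cells (56.4%, 52.1 to 60.7) and in 240 of 530 partners (45.3%, 41.0 to 49.6), so it was more frequent in the gated cells. In T-ALL#2 it was in 79.4% of gated cells (71.8 to 85.8) and 73.3% of partners. Trbc1 or Trbc2, the beta constant genes, were in all gated cells and all partners of every library, and T-ALL#2 cells had Trbc2 almost without Trbc1 (0.709% of gated cells).

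The pairing of the receptor genes within a cell was read beside partners and the whole library. A gamma constant gene without Trac was found in 8 of 17 WT gated cells (47.1%, 23.0 to 72.2), 2 of 17 partners and 2.37% of all WT cells. Its interval lay above the whole library but overlapped that of the partners, and it held the preleukemic gated share of 38.9%. All WT cells were shallower than the gated ones, with medians of 3800.5 and 9140 UMIs. The same pattern was in 206 of 530 preleukemic gated cells (38.9%), 207 of 530 partners (39.1%) and 40.0% of all preleukemic cells, so it was no more frequent inside the gate than outside. In T-ALL#2 it was in 22 of 141 gated cells (15.6%), 17.8% of partners and 15.1% of all cells. Cells with both a gamma constant gene and Trac made up 47.0% of preleukemic gated cells (42.7 to 51.3) and 24.2% of partners (20.6 to 28.0). They made up 4 of 17 WT and 68.8% of T-ALL#2 gated cells.

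The absence of Trac in a cell depends on depth. Among the 206 preleukemic cells that met the gate at 2000 UMIs, 35.0% had Trac, 78.6% a gamma constant gene and 26.7% both. The share with a gamma constant gene and no Trac was then 51.9% (44.9 to 58.9), higher than the 38.9% at full depth. The identity of 1 preleukemic cell could therefore not be settled by a Trac count of 0.

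Coreceptors, which gamma-delta thymocytes mostly lack, were less frequent in gated cells than in partners in preleukemic thymus, while the WT intervals overlapped. Cd8a or Cd8b1 was in 8 of 17 WT gated cells and 13 of 17 partners, and in 124 of 530 preleukemic gated cells (23.4%, 19.9 to 27.2) against 268 of 530 partners (50.6%, 46.2 to 54.9). Cd4 was in 4 of 17 WT gated cells and 10 of 17 partners, and in 1.13% of preleukemic gated cells and 6.23% of partners. In T-ALL#2, 80.1% of gated cells and 77.8% of partners had a Cd8 gene. A gamma constant gene with no Trac, Cd4 or Cd8 gene was found in 6 of 17 WT, 166 of 530 preleukemic (31.3%, against 26.6% of partners), 3 of 5 T-ALL#1 and 2.84% of T-ALL#2 gated cells.

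**Figure D3:**
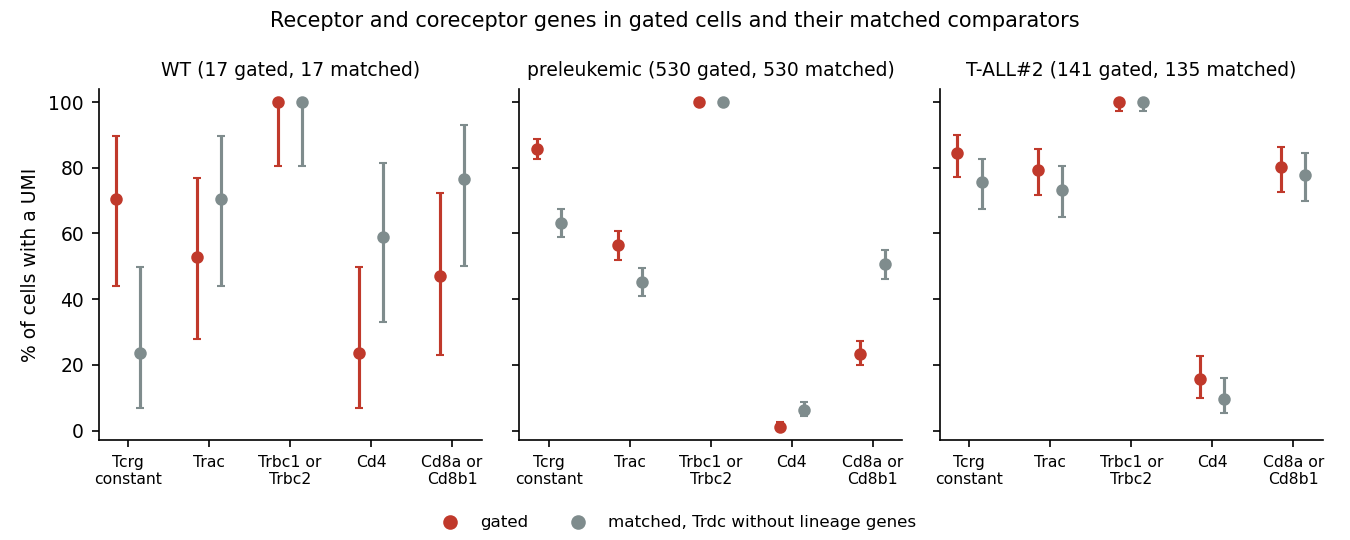
Percentage of cells with a UMI of each receptor or coreceptor gene in gated cells (red) and their depth-matched Trdc-only partners (grey) in 3 libraries, with exact 95% binomial intervals. Trac was in 56.4% of preleukemic gated cells and 45.3% of partners, and Cd8a or Cd8b1 in 23.4% and 50.6%.

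Gene levels were compared as CPM of UMIs summed over gated cells and over partners. A gene was called different where the ratio was at least 2 and the exact Poisson 95% intervals did not overlap, among genes with 10 or more UMIs in both groups together and with the gate genes left out. In WT 131 of 5819 genes were higher (2.25%) and 111 lower (1.91%), and in the preleukemic library 331 of 11152 were higher (2.97%) and 205 lower (1.84%). In T-ALL#2 36 of 9838 genes were higher (0.366%) and 17 lower (0.173%). The median log2 ratio over all genes tested was 0.00 in WT, 0.06 in the preleukemic library and 0.01 in T-ALL#2. As the gate chose the cells, these shares are printed for scale and nothing is read from them. A gene that reached 10 UMIs through the gated cells alone could only come out higher.

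The lists of genes called in WT and preleukemic thymus overlapped in part. Of the 331 genes higher in the preleukemic library 68 had enough UMIs in WT, and of the 205 lower 116 had. Of all genes tested in WT 2.25% were called higher and 1.91% lower. Both comparisons called 26 genes higher, which is 19.8% of the WT list and 7.85% of the preleukemic list, and 39 genes lower, which is 35.1% and 19.0%. Genes called higher in both included Tcrg-C1, Gata3 and Runx3 (transcription factors of T cells), Blk (a Src-family kinase), 5830411N06Rik, Ccr2, Etv5, Tmem176b and Cpa3 (carboxypeptidase A3, best known from mast cells). All of these but Gata3 had too few WT partner UMIs to be measured without the gated cells. Nothing is therefore read from the overlap of 26 genes. Genes lower in both included Cd8a, Cd8b1 and Rag1, the recombinase gene, with Mki67, Top2a and Birc5 of the cell cycle and replication histone genes such as Hist1h1b.

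Some receptor genes of the gamma and delta loci were called higher in gated cells. In WT, Tcrg-C1 had 60 UMIs in gated cells and 2 in partners, Tcrg-C2 84 and 12, Tcrg-C4 64 and 3, and the variable segment Trgv2 18 and 2. These were 4 of the 4 listed genes with enough UMIs, of 16 in the list. Tcrg-C1, Tcrg-C4 and Trgv2 had enough UMIs only because of the gated cells, so nothing is read from the share of 4 of 4. Of 13 measured in the preleukemic library 3 were higher, namely Tcrg-C1 at 504 against 217 CPM (2.32-fold), Tcrg-V6 (2.33-fold) and Trdv1 (2.77-fold), and 0 were lower. In T-ALL#2 only Tcrg-C1 of 6 was higher, with 58 and 28 UMIs. Of 4 genes of the alpha-beta receptor and pre-receptor 0 were called in WT, and Ptcra, the pre-T alpha chain, was the 1 lower in the preleukemic library, with 8 and 44 UMIs.

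Of 20 listed genes of the interleukin-17 program of gamma-delta cells, 18 were measured in the preleukemic library. Of these, 16 were called higher in gated cells, beside 2.97% of all genes tested there. Sox4 was not called, and Il17a and Il17f, which encode the cytokines themselves, had 0 UMIs in gated cells. The chemokine receptor Ccr2 had 140 UMIs in gated cells and 6 in partners, the kinase gene Blk 53 and 1, and the protease inhibitor Serpinb1a 59 and 4. The receptor genes Il18r1 and Il7r had 194 and 18 and 384 and 100, respectively. Zbtb16, the transcription factor PLZF, had 45 and 6. In the preleukemic library Ccr2, Blk, Serpinb1a and Zbtb16, among others, had too few partner UMIs to be measured without the gated cells. Nothing is therefore read from the share of 16 of 18. In WT, 5 of 8 measured genes were higher. Gated cells and partners had 21 and 0 UMIs of Blk, 37 and 0 of 5830411N06Rik and 13 and 0 of Etv5. They had 11 and 0 of Tmem176b and 12 and 1 of Ccr2. These 5 genes were measured because of their UMIs in gated cells and could hardly come out otherwise, so nothing is read from the share of 5 of 8. Ccr2 UMIs in WT lay in 2 cells. In T-ALL#2 Etv5 alone of 8 was higher, with 62 and 20 UMIs.

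Genes of the DP stage and the cell cycle were lower. In preleukemic gated cells 4 of 8 DP genes were lower and 0 higher, with Cd8b1 at 87.7 against 279 CPM, Cd8a at 68.7 against 200 CPM, Rag1 at 34.6 against 150 CPM and Cd4 with 8 against 46 UMIs. In WT, Cd8a, Cd8b1 and Rag1 were lower, with 33 and 133 UMIs of Cd8b1. Of 10 cell-cycle genes 6 were lower in the preleukemic library (Mki67, Top2a, Cdk1, Birc5, Ccnb1 and Ccna2) and 4 in WT (Mki67, Top2a, Birc5 and Pcna). Mki67, a marker of cycling cells, stood at 82.5 CPM in preleukemic gated cells and 219 CPM in partners. In T-ALL#2 0 of 8 DP genes and 0 of 10 cell-cycle genes were called, and Mki67 was detected in 44.0% of gated cells.

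Other lists differed in part. In preleukemic gated cells Gata3 (189 against 78.9 CPM) and Runx3 (82.0 against 29.8 CPM) were higher among 8 T-lineage factors, and Kit, Lyl1, Mef2c and Hhex among 5 measured genes of early progenitors. Id2 and Id3, inhibitors of E proteins, were higher among 6. Hes1 and Erg were higher and Notch3, Rag1 and Rag2 lower among 11 genes of the DN3 stage, and Id3 was higher and Cd200 lower among 8 genes induced by receptor signaling. Of 12 measured interferon-gamma and cytotoxic genes 0 were higher and Eomes, Klrd1 and Gzmb lower. No gene of the CD3 list (10) or the egress list (7) was called.

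In WT, Gata3 (49 and 15 UMIs) and Runx3 (22 and 2) were again higher, with Klf2 and Ccr9 of the list for maturation and egress. Ccr9 had 254 UMIs in gated cells and 59 in partners, and Itm2a was lower. Il2ra (44 and 14) and Hes1 (22 and 4) were higher and Rag1 lower among 8 genes of the DN3 stage, with Hes1 in 2 cells. Nkg7, Gzma and Ccl5 were higher among 6 cytotoxic genes, Cd3g was higher and Cd6 lower among 10 CD3 genes, and 0 of 3 receptor-signaling and 0 of 5 E-protein genes were called.

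The 8 genes that the study had named for its gamma-delta cluster were chosen on these libraries and are no independent evidence. In preleukemic gated cells Cd226 and Il18r1 were higher and Mki67 lower among the 7 outside the gate, and in WT Ccr9 was higher and Mki67 lower among 6.

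The genes with the largest ratios, members of these lists included, were named by a fixed rule that required the same direction in WT. Higher in preleukemic gated cells were the unconventional myosin gene Myo6 (198 against 21.0 CPM, 9.45-fold), the amino-acid transporter gene Slc7a8 (101 against 22.4 CPM, 4.52-fold), Lsp1 (2.97-fold), the cyclin gene Ccnd2 (2.75-fold) and the homeobox gene Hhex (2.71-fold). Angpt1 (222 against 82.0 CPM, 2.71-fold), which encodes angiopoietin-1, Ptpre (2.44-fold), Rbl2 (2.42-fold), Gata3 (2.40-fold) and Tcrg-C1 completed that set. In WT, Ccnd2 had 123 UMIs in gated cells and 41 in partners and Rbl2 25 and 7, whereas Myo6 had 4 and 1, Hhex 1 and 1 and Angpt1 3 and 1, which are too few to carry a direction. Without the cells with Maf the log2 ratio of Ccnd2 was -0.083.

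Lower by the same rule were Rag1 (4.34-fold), the MHC class I genes H2-Q1 (3.58-fold), H2-Q2 (3.11-fold) and H2-T3 (2.75-fold), the histone genes Hist1h1b (3.50-fold) and Hist1h3c (3.4-fold), Cd8b1 (3.18-fold), Birc5 (3.06-fold), Cd8a (2.91-fold) and Mki67 (2.65-fold). Counts of H2-Q1 and H2-Q2 and of single histone genes can be shared with close copies. In WT, Hist1h1b had 46 UMIs in gated cells and 367 in partners, and H2-T3 105 and 155.

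**Figure D4:**
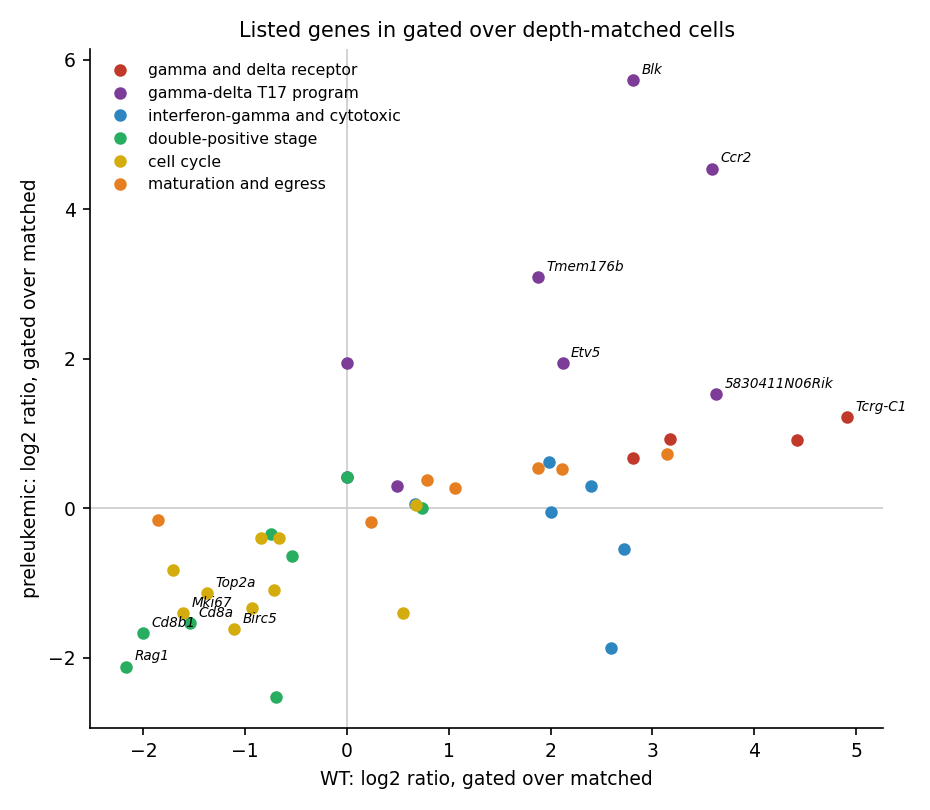
Log2 ratio of CPM in gated over matched Trdc-only cells for genes of 6 lists measured in both libraries, WT on the x axis and preleukemic on the y axis. A gene with 0 UMIs in 1 group was taken at 3 UMIs. Gamma and delta receptor genes and interleukin-17 genes such as Blk and Ccr2 lie at upper right, Rag1, Cd8a, Cd8b1, Mki67 and Top2a at lower left.

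The 17 WT gated cells were few enough to be read one by one, and they divided by how many lineage genes they held. The 9 cells with 3 or more lineage genes had 8 to 43 UMIs of Trdc (median 28), 10 to 52 of Ccr9 and 3 to 9 of Maf. All 9 had Gata3, 8 had a gamma constant gene (median 9 UMIs), 8 had 5830411N06Rik, 7 had Blk and 6 had Cpa3. Trac was in 4 of them with at most 4 UMIs, Cd4 and Cd8b1 in 1 each, and Mki67 in 0. Trac stood at 123 CPM over these 9 cells and at 142 CPM over the 8 cells with exactly 2 lineage genes. Median depths were 6745 and 16614 UMIs, so the level of Trac did not set the 9 cells apart.

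The 8 WT cells with exactly 2 lineage genes were mixed. Trdc ran from 1 to 58 UMIs, a gamma constant gene was in 4, Trac in 5 with up to 12 UMIs, Mki67 in 5 and Cpa3 in 0. The cell with 58 Trdc UMIs had 0 gamma constant UMIs, 5 of Trac, 8 of Cd4, 45 of Cd8a and 42 of Mki67. A set of 3 others had 24, 18 and 39 gamma constant UMIs with 3, 13 and 25 of Il2ra, a gene of the DN3 stage, and the first of them was the deepest gated cell, with 48938 UMIs.

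One WT gated cell held NK genes. It had 46 UMIs of Ccl5, 12 of Klrd1, 8 of Ncr1, 7 of Klre1 and 15 of Tyrobp, with 3 of Trdc and 0 of Cd3e, and in WT gated cells Ccl5, Klrd1, Ncr1, Klre1 and Tyrobp had UMIs in that cell alone. Gzma and Nkg7 were broader, in 10 and 11 of the 17 cells, and Gzma reached 74 UMIs in a cell with 43 of Trdc and 32 of gamma constant genes. Without the deepest WT cell and its partner, 4 receptor, 5 interleukin-17 and 3 cytotoxic genes were higher, and Hes1, Cd3g, Rag1 and Birc5 were no longer called.

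Most Cpa3 UMIs of the WT library lay in gated cells. Of the 44 Cpa3 UMIs in the WT library, 34 (77.3%) were in 6 gated cells, of 10 cells with Cpa3 in all, and these 6 with the other gated cells held 0.951% of all UMIs. 5830411N06Rik, which lies close to Cd163l1 on chromosome 7 (140247284 to 140300736, with Cd163l1 at 140218267 to 140231145), had 50.0% of its library UMIs in gated cells, and Blk 35.6%. The mast-cell genes Fcer1a, Ms4a2, Mcpt8 and Tpsb2 had 0 UMIs in WT gated cells. In the preleukemic library Cpa3 was instead a common transcript, found in 67.9% of all cells, and gated cells held 17.2% of its UMIs with 10.3% of all UMIs.

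Preleukemic gated cells were then described by the lineage genes they held, a division made after their values were seen. Cells with Maf (n = 87) differed from those with Sox13 and Rora only (n = 375) and from other pairs without Maf (n = 68), at median depths of 6644, 5252 and 11291.5 UMIs. At least 3 genes of the interleukin-17 list had a UMI in 52 of 87 cells with Maf (59.8%, 48.7 to 70.1), 26 of 375 with Sox13 and Rora only (6.93%, 4.58 to 9.99) and 19 of 68 others (27.9%, 17.7 to 40.1). By UMIs summed over the list, cells with Maf held 27.7% with 14.9% of all UMIs of gated cells, and cells with Sox13 and Rora only 59.4% with 63.6%.

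Single genes divided likewise. Ccr2 was in 35.6% of cells with Maf, in 0 of both other kinds and in 0.566% of partners. Il7r was in 39.1%, 4.53%, 16.2% and 8.49% of cells with Maf, with Sox13 and Rora only, of other pairs and of partners, and Id2 in 41.4%, 0.8%, 16.2% and 6.6%. Il18r1 was in 35.6%, 5.07%, 4.41% and 1.70%, and Zbtb16 in 16.1%, 0.267%, 0 and 0.943%. Il23r, the receptor chain for interleukin-23, and Il1rl1 were in 9.20% and 13.8% of cells with Maf and in 0 of the other kinds and partners.

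Cells with Sox13 and Rora only carried other genes. Cpa3 was in 91.7% of them, 60.9% of cells with Maf and 62.1% of partners, and Mdga1 in 75.5%, 32.2% and 41.1%. Lyl1, a relative of Tal1, was in 26.1%, 5.75% and 5.66%, and Hhex in 44.8%, 28.7% and 18.5%. Cd8b1 was in 14.4% of them and 11.5% of cells with Maf, but in 51.5% of other pairs and 45.1% of partners. Mki67 was in 8.53%, 4.60%, 27.9% and 17.4% of cells with Sox13 and Rora only, with Maf, of other pairs and of partners.

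**Figure D5:**
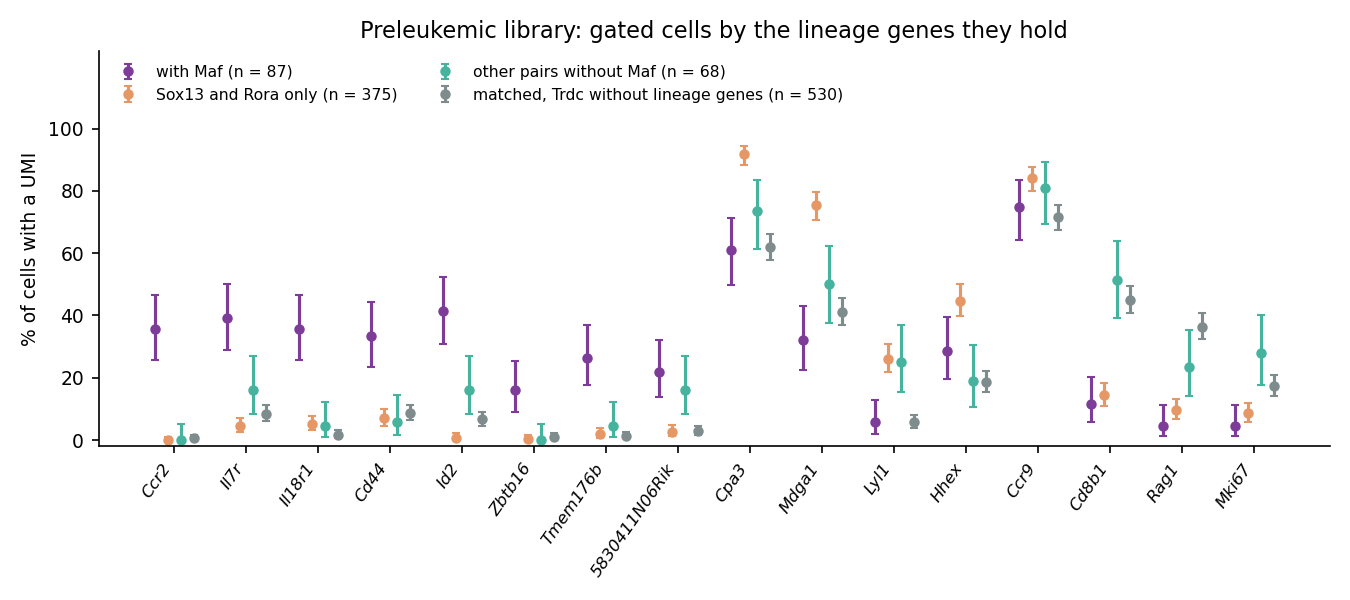
Percentage of preleukemic cells with a UMI of each gene, for gated cells with Maf (purple, n = 87), with Sox13 and Rora only (orange, n = 375), with other pairs (green, n = 68) and for matched Trdc-only cells (grey, n = 530), with exact 95% binomial intervals. Ccr2, Il18r1 and Zbtb16 stand highest in cells with Maf, and Cpa3 and Mdga1 in cells with Sox13 and Rora only.

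Receptor genes divided the kinds less. A gamma constant gene was in 95.4% of cells with Maf, 83.5% with Sox13 and Rora only and 86.8% of other pairs, and Trac in 48.3%, 56.3% and 67.6%. A gamma constant gene without Trac was in 48.3%, 38.4% and 29.4%, against 39.1% of partners. Lck, whose promoter drives the transgenes, was in 66.7% of cells with Maf, 95.2%, 97.1% and 97.9% of partners, and Tal1 in 70.1%, 78.4%, 80.9% and 88.3%. Tal1 over all preleukemic gated cells stood at 330 CPM, against 436 CPM in partners.

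Without the 87 cells with Maf, and with partners matched again for the 443 others, the interleukin-17 list changed most. Of 10 measured genes, Blk, Etv5, Il18r1, Serpinb1a and Batf were higher. The median log2 ratio was 2.70 over 18 measured genes with the Maf cells and 0.81 over these 10, so the medians cover different sets of genes. Ccr2 (-0.42), Il7r (-0.43), Zbtb16 (-2.32) and Id2 (-1.27) then had a log2 ratio below 0. Among early progenitor genes Kit, Lyl1 and Hhex were still higher, 6 cell-cycle genes and Cd4, Cd8a, Cd8b1 and Rag1 of the DP stage were lower, and Tcrg-C1 and Tcrg-V6 were higher.

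Markers of other cells were counted in the same gated cells. In the preleukemic library, B-cell and myeloid lists had 0 genes called, with Ms4a1, Pax5, Lyz2, Csf1r, S100a8 and S100a9 at 0 UMIs in gated cells. Among genes of antigen presentation, H2-Ab1, Cd74 and H2-Aa were higher, and Cd74 had its 56 UMIs in 3 cells, 54 of them in 1. Of the NK list, Eomes and Tyrobp were at 0, and of the NKT list Trav11, Trav11d and Trav1 were at 0 while Zbtb16 was higher. Il1rl1, Kit, Gata3 and Il7r of the innate lymphoid list were higher, Ctla4 of the regulatory T list was lower, and Cpa3 and Kit of the mast list were higher with Fcer1a, Ms4a2, Mcpt8 and Tpsb2 at 0. Red-cell genes had 0 to 2 UMIs each. In WT, Gata3, Ikzf2 and Cpa3 were the genes of these lists called higher.

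Preleukemic and WT gated cells were compared with each other, with the ratio over all kept cells of both libraries beside it. Of 10475 genes, 294 were higher in preleukemic gated cells (2.81%) and 367 lower (3.5%). Of 13 gamma and delta receptor genes, 12 of them with a ratio, 2 were higher and 0 lower. Trdc stood at 2151 CPM in preleukemic and 1736 CPM in WT gated cells, and Trac at 194 and 136 CPM. Over all kept cells Trac was at 178 and 636 CPM, so WT gated cells held far less Trac than their library while preleukemic gated cells held about as much as theirs. Between gated cells and their Trdc-only partners, Trac was not called different in either library. Tcrg-V6 had 126 UMIs in preleukemic and 0 in WT gated cells, and Trgv2 stood at 217 and 78.7 CPM, while Ptcra was lower, with 8 and 15 UMIs.

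The 10 named genes that were higher in preleukemic gated cells were also higher in the whole library. Tal1 was at least 25.2-fold higher, the WT floor being 3 UMIs over the group, Mdga1 at least 15.0-fold and Tubb2b at least 18.5-fold. These are ratios at that floor, and the lower limits of their intervals were 20.4, 12.2 and 15.0. Cpa3 was 15.1-fold higher (2246 against 149 CPM, interval 10.8 to 21.8), and 732-fold higher over all cells. Kifap3, Arhgap19, Enc1 and Hhex each had 1 UMI in WT gated cells, and their ratios of 30.2 (5.39 to 1193), 29.6 (5.28 to 1169), 28.0 (5.0 to 1107) and 23.4 (4.18 to 926) are loosely set. Over all cells these 4 were 4.85-fold, 9.26-fold, 8.38-fold and 35.4-fold higher. Angpt1 (16.9-fold, 5.78 to 82.3) and Myh10 (16.3-fold, 4.49 to 135) were 29.0-fold and 24.0-fold higher over all cells.

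Of 18 measured interleukin-17 genes 13 had a ratio between preleukemic and WT gated cells. Of these, 4 were lower and 1 was higher in preleukemic cells. The others with a ratio were not called. The genes without a ratio had no UMI in WT gated cells and lay below the WT floor, so they could not be called. Among the lower, Blk stood at 12.6 against 91.8 CPM, Etv5 at 18.4 against 56.8 CPM and 5830411N06Rik at 23.4 against 162 CPM, while the higher gene was Il7r, at 91.6 against 39.4 CPM, with a log2 ratio of -1.02 without the cells with Maf. Of 8 cytotoxic genes 6 were lower, among them Gzma at 460 against 1150 CPM, and Klrd1, Ccl5 and Prf1 had their WT UMIs in the cell with NK genes, which also held 10 of the 12 of Il2rb. Also lower were 6 of 10 cell-cycle genes, 4 of 10 DN3 genes (9 with a ratio), 3 of 8 DP genes and Klf2, S1pr1 and Ccr7 of 7 egress genes. Single WT cells weighed on several of these, since 1 held 42 of the 54 UMIs of Mki67 and 45 of the 53 of Cd8a, 2 cells held all 22 of Hes1, and 2 held 13 and 25 of the 44 of Il2ra. At 3 or more lineage genes the log2 ratios of Top2a and Il2ra were 0.36 and 0.26, and that of Tox, otherwise higher, was -0.017. Runx1, Tox, Lyl1 and Hhex were higher. 5830411N06Rik pointed the other way in the whole library, where it was 3.28-fold higher in preleukemic cells.

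The largest ratios in the other direction often rested on a few WT cells. Gm29666 was 45.5-fold lower in preleukemic gated cells, with 66 of its 67 WT UMIs in the deepest cell, and its log2 ratio was 0.21 without that cell. Pbld1 (35.6-fold) had its 33 WT UMIs in 1 cell, Ccl5 (6.25-fold) in 1, Spata7 (6.71-fold) in 4 and Wdcp (12.5-fold) in 5, with 82 of 91 in the deepest. Igfbp4 (6.79-fold, 10 cells), Rgcc (5.84-fold, 9 cells), Samhd1 (6.11-fold, 7 cells) and Terf2ip (6.16-fold, 6 cells) were spread more widely. Over all kept cells Igfbp4 was 5.20-fold, Samhd1 10.9-fold and Rgcc 2.41-fold lower in the preleukemic library, whereas the ratio of preleukemic over WT cells was 0.969 for Terf2ip, 1.08 for Spata7, 1.33 for Wdcp, 1.51 for Ccl5, 0.876 for Gm29666 and 0.799 for Pbld1.

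The 5 gated cells of T-ALL#1 resembled one another in a few genes. Trdc had 15, 8, 4, 1 and 1 UMIs, and gamma constant genes 7, 53, 5, 3 and 5 in the same order. Trac had 2 and 10 UMIs in the first and second and 0 in the other 3. Il7r had 7, 5, 5, 5 and 12 UMIs and Tal1 2, 2, 5, 5 and 3, with Cd4 and Cd8b1 at 0 in all 5. The second cell held 52343 UMIs and 18 of Mki67. Over the 4 pairs, among genes picked for their difference, gated cells and partners had 29 and 8 UMIs of Il7r, 21 and 0 of Tmem176a, 14 and 0 of Tmem176b, 17 and 0 of Serpinb1a and 15 and 1 of Tal1. In the other direction Ccl5 had 0 and 124, Nkg7 0 and 24 and Ly6c2 0 and 15.

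The gated cells of T-ALL#2 differed little from their partners. Beyond Tcrg-C1 and Etv5, Cd69 (89 and 43 UMIs), Ccr9 (46 and 21) and Cpa3 (34 and 12, in 4 cells) were the listed genes called higher, and 0 listed genes were called lower. Il2ra was in 71.6% and Tal1 in 92.9% of gated cells, against 77.0% and 92.6% of partners. Ccr2 and Cd44 had UMIs in 0 gated cells and Il18r1 in 1.

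The values that bear on the name gamma-delta-like are put together here. Of the 9 WT cells with 3 or more lineage genes, 8 had a gamma constant gene and 5 had no Trac UMI. Of the 8 WT cells with exactly 2 lineage genes, 4 had a gamma constant gene and 5 had Trac. All 5 T-ALL#1 gated cells had a gamma constant gene, and 3 of them had no Trac UMI. The 9 WT cells were gated more strictly than the cells of the other libraries, and depth differed too, so the libraries are not ranked. In the preleukemic library a gamma constant gene was more frequent in gated cells than in partners. Preleukemic gated cells had Trac in 56.4% and Tal1 in 77.4%, and a gamma constant gene without Trac in 38.9% against 39.1% of partners. T-ALL#2 gated cells had Trac in 79.4%, a Cd8 gene in 80.1% and Tal1 in 92.9%, and are described by their genes alone.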

How the data were processed

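Viable 7-AAD-negative thymocytes of 4 mice were sorted and loaded on the 10x Genomics Chromium platform, and the labels name both 3′ v1 and v3.1 chemistry but not by library. The deposited files hold UMI counts per gene and barcode, which the authors made with Cell Ranger 3.0.2 (WT, preleukemic and T-ALL#1) or 4 (T-ALL#2, per the file headers), both against mm10. They were not normalized or corrected for free RNA. T-ALL#2 was deposited with all barcodes.

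Kept barcodes had over 500 genes and under 10% mitochondrial UMIs, and in T-ALL#2 at least 3416 UMIs. Kept UMIs summed to 24042062, 40851235, 70745712 and 36236569. No doublet caller was run, and limits on genes and UMIs per cell were tried instead. Groups came from the labels.

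Each gated cell was paired without replacement with the Trdc-only cell nearest in log10 UMIs, within 0.05. Levels were CPM of summed UMIs with exact Poisson 95% intervals, shares had exact Clopper-Pearson 95% intervals, and a group at 0 UMIs was taken at 3. Beside the listed genes, the 10 with the largest ratio in each direction, list members included, were named, at 100 CPM or more in the higher group and, for gated over Trdc-only cells, with the same direction in WT. The members, lists and rules were chosen with earlier results of these data known. Python 3.11.15, numpy 2.4.6, scipy 1.17.1 and pandas 2.3.3 were used, and edgeR 4.0.16 in R 4.3.3 gave TMM factors for 1 alternative. The procedure was tested on simulated counts. Positions and sequences are from GENCODE M21 (GRCm38), in which 30934 of 31053 gene identifiers (99.6%) were found. A few genes of the lists are not reported here.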

Additional observations from a re-analysis of the deposited data

Results flagged for a closer look

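A pair of genes moved in opposite directions between libraries, and the difference between the libraries was not tested. Nabp1 had a log2 ratio of gated over Trdc-only partner cells of 1.04 in the preleukemic library (396 and 192 UMIs) and of -1.83 in WT (7 and 25 UMIs). Pbld1 had a log2 ratio of -1.40 in the preleukemic library (17 and 45 UMIs), of 3.46 in WT (33 and 0 UMIs, with the 0 taken at 3) and of -1.71 in T-ALL#2 (15 and 49 UMIs). The 33 WT UMIs of Pbld1 were in 1 cell.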

How the results depend on the processing

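No paired analysis was possible because WT and preleukemic groups hold 1 library each and share no animal. A gate of 3 or more lineage genes took 0.213% of the WT, 1.18% of the preleukemic, 0.0173% of the T-ALL#1 and 0.253% of the T-ALL#2 library. With 2 or more Trdc UMIs the preleukemic and T-ALL#2 shares were 8.59% and 5.77%, and thinned to 2000 UMIs the 4 shares were 0.186%, 3.94%, 0 and 0.203%. Left out of the gate, Sox13 gave preleukemic and T-ALL#2 shares of 2.40% and 4.35%, Cd163l1 8.63% and 0.658%, and Rora 1.61% and 3.09%, with 0.0173% in T-ALL#1. The leukemic mean of 3.61% was 0.0866% to 7.14% with either library left out.

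Trac was in 16.7% of WT, 35.0% of preleukemic and 50.0% of T-ALL#2 gated cells after thinning, and in 63.6% (preleukemic) and 100% (T-ALL#1, 1 cell) at 3 or more lineage genes. Gamma constant genes were in 78.6% (preleukemic) and 25% (T-ALL#2) after thinning and in 97.0% and 60% respectively at 3 or more. Thinned T-ALL#2 and WT values rest on 4 and 6 cells.

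Genes higher and lower numbered 498 and 277 (WT) and 533 and 325 (preleukemic) against all Trdc-only cells, with 10 lower in T-ALL#2. Weighting in depth bins gave 362 and 237 (WT), and 65 higher in T-ALL#2. Means of single-cell CPM, with no intervals, gave 838 and 813 (WT), 661 and 527 (preleukemic) and 412 and 261 (T-ALL#2). At 3 or more lineage genes, 67 were higher in WT and 11 lower in T-ALL#2. Preleukemic over WT gated cells gave 59 and 105 at 3 or more lineage genes, 12 and 63 after thinning, and 365 and 306 under TMM scaling.

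Log2 ratios that changed sign at 3 or more lineage genes were those of Cd3g (-0.10), Ccl5 (-1.22), Il2ra (-2.22) and Hes1 (-0.41) in WT, Ccr9 (-0.42) in T-ALL#2, and Trgv2 (-0.025), Il2ra (0.26), Tox (-0.017) and Top2a (0.36) in preleukemic over WT. Without Maf-positive cells, an alternative added after the data were seen like that without the deepest WT cell, Zbtb16 (-2.32), Ccr2 (-0.42), Il7r (-0.43), Id2 (-1.27) and Ccnd2 (-0.083) changed sign in the preleukemic library and Il7r (-1.02) in preleukemic over WT. Others were Hes1 (-0.032, single-cell means, WT), Cd74 (-0.093, depth bins, preleukemic), Slamf1 (-0.82, thinned) and Gm29666 (0.21, without the deepest WT cell). The cause was not tested. Of 453 values for 67 genes called in the preleukemic library, 405 kept their call, 42 lost it and 6 changed sign, and in WT 197, 14 and 5 of 216 did. In preleukemic over WT 260, 49 and 7 of 316 did, with 56 more settings giving no value, and in T-ALL#2 22, 5 and 1 of 28. WT gated cells were 17, so their depth limits every WT level.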
